A study of Mus musculus with 16 samples.

Results

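A set of 10 integrin subunit genes was examined across resting and cultured mouse CD4+ T cells: Itgae, Itgb7, Itga4, Itgb1, Itgal, Itgb2, Itga6, Itgav, Itgb8 and Itgb3. They were picked from the deposited tables by symbol and are 10 of the 53090 genes quantified in every library. RNA had been sequenced from naïve splenic CD4+ T cells (Tn), freshly isolated and never cultured, and from CD4+ T cells kept 2 days (48 h) with antibodies to CD3 and CD28, recombinant human TGF-β and recombinant mouse IL-2, which are Treg-inducing conditions (Treg). Each state came from wild-type mice (WT) and from mice lacking AIM2, a cytosolic sensor of DNA (Aim2-/-), both on the C57BL/6 background and matched for sex and age, which makes the 4 groups WT Tn, Aim2-/- Tn, WT Treg and Aim2-/- Treg with 4 libraries each. The deficiency is present in all cells of these animals rather than in T cells alone, the naïve cells were purified magnetically rather than by sorting, and a culture without TGF-β is not analysed here. Culture, stimulation and time therefore cannot be told apart in any comparison of Treg with Tn. The labels give separately numbered samples and do not say which mouse each came from, so p-values measure the spread between these samples.

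Integrins are cell surface receptors made of 1 α and 1 β chain, and a chain reaches the surface only with a partner. Their ligand affinity is switched from within the cell, when talin and kindlin bind the β chain tail downstream of the GTPase RAP1, and bound integrins signal back through an adhesion complex of kinases and actin linkers. In T cells the αL chain (Itgal) with the β2 chain (Itgb2) forms LFA-1, the receptor for ICAMs on antigen-presenting cells and endothelium. The α4 chain (Itga4) pairs with the β7 chain (Itgb7) to bind MAdCAM-1 in gut venules, or with the β1 chain (Itgb1) to bind VCAM-1. The αE chain (Itgae, CD103) pairs with β7 alone, binds E-cadherin on epithelium and is a known TGF-β target. The α6 chain (Itga6) with β1 binds laminins, and the αv chain (Itgav) binds vitronectin and other RGD proteins with β3 (Itgb3) or β1, or frees active TGF-β from its latent complex with β8 (Itgb8).

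The promoters of 4 members that moved in opposite directions are shown first, since they are the letters in front of the genes that the results turn on: Itgb7 and Itga4, whose mRNA fell in culture, and Itgb1 and Itgav, whose mRNA rose. Each is the 250 bases that end just before the RefSeq start of the gene on GRCm38.p6, written 5′ to 3′ on the gene's own strand. Capitals mark matches, on either strand, to CAGAC (a SMAD-binding core), TGTGGT (RUNX) or GGAAA (the NFAT core), and none of the matches overlap.
Itgb7: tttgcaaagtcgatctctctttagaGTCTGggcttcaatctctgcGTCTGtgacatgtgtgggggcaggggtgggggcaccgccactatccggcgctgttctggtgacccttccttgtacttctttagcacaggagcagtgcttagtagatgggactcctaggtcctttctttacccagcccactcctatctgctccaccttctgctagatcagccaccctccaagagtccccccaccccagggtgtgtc
Itga4: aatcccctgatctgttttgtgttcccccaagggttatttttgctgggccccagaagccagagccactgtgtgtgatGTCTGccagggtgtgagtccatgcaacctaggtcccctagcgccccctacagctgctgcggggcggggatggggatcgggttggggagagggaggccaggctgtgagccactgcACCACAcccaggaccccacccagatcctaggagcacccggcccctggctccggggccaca
Itgb1: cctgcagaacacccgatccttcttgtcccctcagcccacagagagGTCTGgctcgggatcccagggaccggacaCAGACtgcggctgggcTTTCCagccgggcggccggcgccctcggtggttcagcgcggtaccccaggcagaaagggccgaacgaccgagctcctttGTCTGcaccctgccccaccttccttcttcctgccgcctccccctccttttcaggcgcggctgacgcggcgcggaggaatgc
Itgav: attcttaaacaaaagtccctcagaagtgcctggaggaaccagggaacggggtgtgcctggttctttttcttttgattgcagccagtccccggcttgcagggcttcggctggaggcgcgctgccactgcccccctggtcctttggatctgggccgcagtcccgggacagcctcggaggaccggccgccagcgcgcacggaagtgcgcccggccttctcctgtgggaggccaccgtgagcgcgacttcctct
The Itgb7 window lies on the minus strand at chr15:102231936-102232185 and held 2 matches to CAGAC. The Itga4 window, on the plus strand at chr2:79255176-79255425, held 1 match to CAGAC and 1 to TGTGGT. The Itgb1 window, on the plus strand at chr8:128685404-128685653, held 3 matches to CAGAC and 1 to GGAAA. The Itgav window, on the plus strand at chr2:83724147-83724396, held none of these letters. In all 32817 RefSeq promoter windows of this length, 42.2% held CAGAC, 14.0% held TGTGGT and 55.6% held GGAAA, so a match is common and is given here as a description of the letters only. The fifth member with an entry, Itgb8, held 1 match to CAGAC. Itgae, Itgal, Itgb2, Itga6 and Itgb3 are named only.

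The libraries held between 22516424 and 34533316 expected counts, and 3 counts, taken here as the detection floor, were 0.0869 to 0.133 CPM, which are counts scaled to a common library total. Aim2 was 32.3 to 43.3 CPM in the WT libraries and 6.61 to 10.8 CPM in the Aim2-/- libraries, with no overlap in either state. All 6 CD4 T cell markers were present in every group, and all 6 were lower in Treg than in Tn in both genotypes (adjusted p below 0.05 by edgeR). In this comparison 76.9% of all genes tested were called in either direction in WT and 79.3% in Aim2-/-. The CD4 T cell list summed to 3010 to 3530 CPM in Tn and 1190 to 1340 CPM in Treg. Of the CD8 T cell markers, Cd8a did not exceed 10 counts in any library, while Cd8b1 held 226 to 346 counts in the Tn libraries and 52 to 127 in the Treg libraries. The B cell list summed to 440 to 597 CPM in Tn and 124 to 170 CPM in Treg, nearly all of it Ighm. Igkc held 46 to 570 counts in Tn and 31 to 96 in Treg, Cd79a 18 to 55 and 6 to 16, and Cd22 12 to 43 and 0 to 12, whereas Ms4a1 was at 0 in every library. The dendritic cell list stayed below 2 CPM. The part of these other cell types in the results was not tested. Within WT Tn, replicates 1 and 2 stood apart from replicates 3 and 4: the chi-square per degree of freedom over genes was 73.3 to 94.2 between these pairs and 11.5 to 13.5 within them. In Aim2-/- Treg it was 21.6 to 49.5 between them and 10.4 to 13.5 within them, and in the other groups the ranges between and within overlapped. The labels name no batch for this split, so results that rest on it are also given within each pair of replicates. Of the 8 listed culture genes, 3 were higher and 4 lower in Treg in each genotype (adjusted p below 0.05 by edgeR). This count is to be read against the same 76.9% of all genes called in WT and 79.3% in Aim2-/-. Foxp3, the lineage factor of Treg cells, rose from 2.74 ± 0.97 to 477 ± 137 CPM in WT (SD, n = 4). Il2ra, the IL-2 receptor α chain, rose there from 3.46 ± 0.80 to 1450 ± 55.3 CPM. Ctla4 was the listed gene that did not pass. Its WT libraries averaged 47.5 ± 37.3 CPM before culture and 73.0 ± 11.3 CPM after it. For Aim2-/- libraries the Ctla4 averages were 72.2 ± 6.95 CPM before and 68.8 ± 11.2 CPM after.

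The integrin chains that the cells transcribed differed between the naïve and the cultured state. The naïve repertoire was led by Itgb7. After culture Itgb7, Itga4, Itga6 and Itgb3 were lower, and Itgb1, Itgav and Itgae were higher. The LFA-1 chains Itgal and Itgb2 were each fitted at 1.08 times their naïve level in WT and were not called. Of the 10 members, 9 passed the filter of 10 counts in 4 libraries in the WT comparison. By the quasi-likelihood F test of edgeR, with Benjamini-Hochberg adjustment below 0.05 over all genes tested, 3 were called higher and 4 lower. Itgae had no WT Tn library with 10 counts and passed through its Treg libraries, so it had to be higher. Of the other 8 tested, 2 were called higher, 4 lower and 2 were not called. The member counts that follow include Itgae. Over all 13675 genes tested 76.9% were called, 37.7% higher and 39.2% lower, so 7 of 9 and its split by direction are close to the background of this comparison. In size, the WT changes of Itgal, Itgb2 and Itga6 were above those of 6.8%, 7.2% and 46.6% of all genes tested. Those of Itgav, Itgb1, Itgb7 and Itga4 were above 76.1%, 79.2%, 85.9% and 88.2%, and those of Itgae and Itgb3 above 93.9% and 96.5%. With a second rule of at least 2-fold, 3 members were higher and 3 lower, against a background of 46.8% of genes called. The same 7 members were called in the same directions in Aim2-/- cells, a comparison that shares no library with the WT one and has a background of 79.3%. The Tn and Treg libraries did not overlap for 8 members in WT and 6 in Aim2-/-, against 72.9% and 74.8% of all genes tested.

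**Figure D1:**
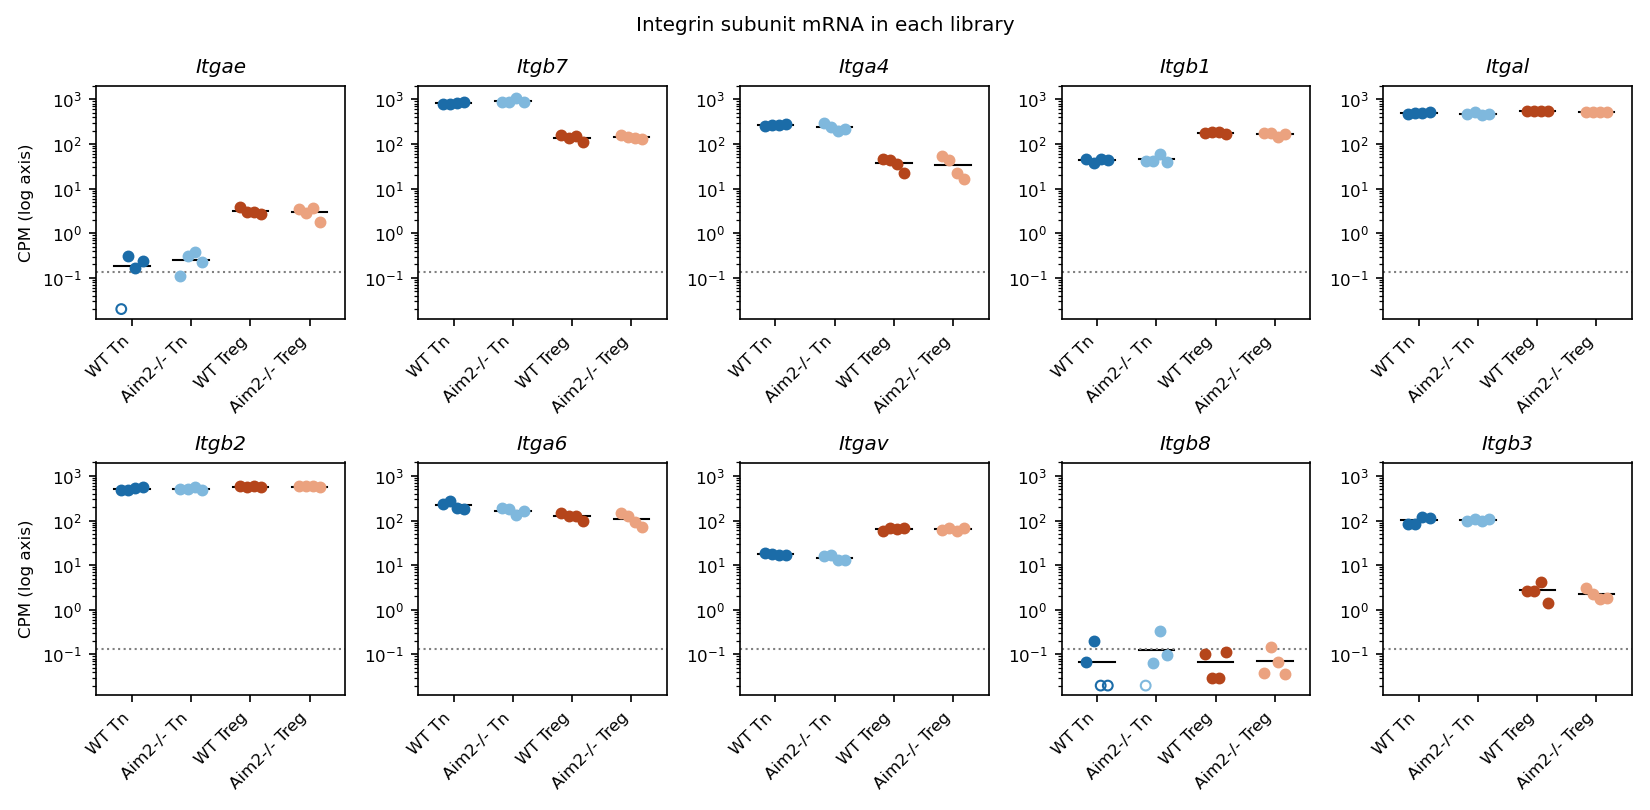
mRNA level of each integrin subunit in each of the 16 libraries, in TMM-normalized CPM on a log axis; points are libraries in replicate order, bars are group means of 4 libraries, open circles at the bottom are libraries at 0 counts and the dotted line is the level of 3 counts in the shallowest library. Itgb7, Itga4 and Itgb3 sit lower in all Treg libraries than in all Tn libraries, Itgb1, Itgav and Itgae sit higher, and Itgb8 stays near the dotted line.

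LFA-1 is described first because it is the most even pair. Itgal (chromosome 7, 127296260 to 127335138, plus strand) was 464, 509, 497 and 511 CPM in WT Tn replicates 1 to 4 and 558, 537, 544 and 547 CPM in WT Treg. In Aim2-/- cells Itgal was 466, 531, 459 and 479 CPM in Tn and 529, 534, 512 and 524 CPM in Treg. The WT groups did not overlap, the Aim2-/- groups did, and neither difference passed the test: log2 fold change 0.11 ± 0.06 (SE, adjusted p = 0.095 by edgeR) in WT and 0.11 ± 0.08 (adjusted p = 0.21) in Aim2-/-.

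Itgb2 (chromosome 10, 77530252 to 77565708, plus strand), the β chain shared by the leukocyte integrins, was 495, 492, 533 and 558 CPM in WT Tn and 593, 556, 585 and 570 CPM in WT Treg. Aim2-/- Tn libraries held 502, 497, 560 and 490 CPM and Aim2-/- Treg libraries 585, 585, 585 and 557 CPM. The groups overlapped in both genotypes, and the log2 fold changes were 0.12 ± 0.06 (adjusted p = 0.10 by edgeR) and 0.16 ± 0.07 (adjusted p = 0.061). These small differences depended on scaling: with upper quartile factors Itgal and Itgb2 were both at -0.01 in WT and at -0.06 and -0.01 in Aim2-/-, while DESeq2 called both in WT, at 0.15 and 0.16. In WT both were also called within replicates 1 and 2 alone, at 0.18 and 0.23. No direction is given for LFA-1.

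The gut homing chains fell. Itgb7 (chromosome 15, 102215995 to 102231944, minus strand) was 787, 775, 830 and 891 CPM in WT Tn and 156, 139, 150 and 110 CPM in WT Treg. In Aim2-/- it was 878, 890, 1060 and 898 CPM in Tn and 159, 146, 135 and 127 CPM in Treg. Every Treg library was far below every Tn library, with a 6.05-fold fall in WT (log2 -2.60 ± 0.11, adjusted p = 3.3e-08 by edgeR) and a 6.62-fold fall in Aim2-/- (log2 -2.73 ± 0.10, adjusted p = 1.0e-09).

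Itga4 (chromosome 2, 79255426 to 79333123, plus strand), the α chain that directs T cells to gut or inflamed endothelium according to its partner, was 248, 272, 272 and 285 CPM in WT Tn and 46.9, 42.8, 36.4 and 21.9 CPM in WT Treg. Aim2-/- Tn libraries held 294, 241, 193 and 222 CPM, and Aim2-/- Treg libraries 55.2, 43.8, 22.3 and 16.2 CPM. Itga4 fell 7.43-fold in WT (log2 -2.89 ± 0.21, adjusted p = 1.3e-06 by edgeR) and 6.95-fold in Aim2-/- (log2 -2.80 ± 0.35, adjusted p = 2.8e-05). Its Treg replicates were uneven: the mean of replicates 1 and 2 was 1.54 times that of replicates 3 and 4 in WT Treg and 2.58 times in Aim2-/- Treg, without overlap in either. Within replicates 1 and 2 the WT change of Itga4 was -2.52 (log2), and within replicates 3 and 4 it was -3.29.

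Itgae (chromosome 11, 73090583 to 73147446, plus strand) was close to absent in Tn. Its counts were 0, 8, 4 and 7 in WT Tn and 3, 10, 10 and 7 in Aim2-/- Tn, against 115, 103, 98 and 74 in WT Treg and 94, 80, 109 and 49 in Aim2-/- Treg. The Treg libraries therefore stood at 2.74 to 3.88 CPM in WT and 1.82 to 3.67 CPM in Aim2-/-, above all Tn libraries. Itgae passed the filter through its Treg libraries, so it had to differ to be tested, and the fitted rises of 16.8-fold in WT (log2 4.07 ± 0.51, adjusted p = 5.0e-05 by edgeR) and 11.2-fold in Aim2-/- (log2 3.49 ± 0.36, adjusted p = 3.8e-06) rest on those few naïve counts. Haspin, a mitotic kinase gene on the opposite strand inside Itgae, reached 162 counts in Tn and 1539 in Treg, and the strand setting of the counting is not given in the sources used here, so a share of these reads cannot be assigned with certainty. A part of the Itgae counts coming from Haspin was not tested.

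The β1 chain moved the other way from β7. Itgb1 (chromosome 8, 128685654 to 128733200, plus strand), the partner of many α chains for matrix and VCAM-1, was 45.9, 37.6, 46.5 and 44.0 CPM in WT Tn and 181, 185, 189 and 165 CPM in WT Treg. Aim2-/- Tn libraries were at 40.7, 40.8, 59.0 and 40.2 CPM and Aim2-/- Treg libraries at 181, 181, 143 and 170 CPM. All Treg libraries were above all Tn libraries, with a 4.05-fold rise in WT (log2 2.02 ± 0.09, adjusted p = 3.1e-08 by edgeR) and a 3.71-fold rise in Aim2-/- (log2 1.89 ± 0.14, adjusted p = 1.7e-07).

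Itga6 (chromosome 2, 71745616 to 71858416, plus strand), the laminin-binding α chain, changed less. It was 230, 268, 194 and 186 CPM in WT Tn and 144, 127, 129 and 96.5 CPM in WT Treg, which did not overlap. In Aim2-/- cells it was 189, 182, 133 and 165 CPM in Tn and 147, 125, 93.8 and 71.4 CPM in Treg, where the lowest Tn library was below the highest Treg library. Itga6 fell 1.81-fold in WT (log2 -0.86 ± 0.15, adjusted p = 0.00046 by edgeR) and 1.54-fold in Aim2-/- (log2 -0.62 ± 0.21, adjusted p = 0.018). The Aim2-/- call was lost without Aim2-/- Treg replicate 3 (log2 -0.51, adjusted p = 0.061) and with no filter on low counts (log2 -0.58, adjusted p = 0.079).

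Of the αv group, the shared α chain rose and the β3 chain fell steeply, though it stayed above the detection floor. Itgav (chromosome 2, 83724397 to 83806916, plus strand) was 19.0, 18.1, 17.3 and 17.1 CPM in WT Tn and 58.4, 69.4, 64.6 and 67.8 CPM in WT Treg, and in Aim2-/- it was 16, 17.3, 12.8 and 13.3 CPM in Tn and 62.9, 68.9, 57.2 and 66.8 CPM in Treg. The groups were well apart in both genotypes, with rises of 3.56-fold (log2 1.83 ± 0.08, adjusted p = 4.1e-08 by edgeR) and 4.28-fold (log2 2.10 ± 0.12, adjusted p = 2.0e-08).

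Itgb3 (chromosome 11, 104608000 to 104670476, plus strand) was 85.2, 85.7, 122 and 113 CPM in WT Tn and 2.63, 2.63, 4.17 and 1.44 CPM in WT Treg. Aim2-/- Tn libraries held 96.2, 109, 96.9 and 106 CPM and Aim2-/- Treg libraries 3.09, 2.23, 1.75 and 1.82 CPM. This was the largest change of the 9 members tested in each genotype, a 37.8-fold fall in WT (log2 -5.24 ± 0.29, adjusted p = 2.1e-07 by edgeR) and a 46.3-fold fall in Aim2-/- (log2 -5.53 ± 0.16, adjusted p = 1.5e-10). Its size was above that of 96.5% of all genes tested in WT and 96.6% in Aim2-/-. Itgb3 is also a platelet receptor chain, so the platelet and megakaryocyte markers were read beside it: Pf4 did not exceed 3 counts and Ppbp 6 counts in any library, 5 of the 7 listed markers stayed at 3 counts or fewer in every group, and the sum of the list was 1.05 to 1.92 CPM in Tn and 0.26 to 1.01 CPM in Treg, while Itgb3 had 2167 to 3458 counts in Tn. Most of that sum was Gp1ba, with 26 to 53 counts in Tn and 7 to 35 in Treg. Itga2b, the α chain that pairs with β3 in platelets, was not on that list. It fell from 3.36 ± 0.87 to 0.994 ± 0.284 CPM in WT (log2 -1.79 ± 0.29, adjusted p = 0.00029 by edgeR). In Aim2-/- it fell from 4.16 ± 0.52 to 0.898 ± 0.200 CPM (log2 -2.22 ± 0.22, adjusted p = 2.7e-06 by edgeR). The part of platelet RNA in the fall of Itgb3 was not tested. In RNA from whole samples, fewer cells of a type and less RNA per cell cannot be told apart.

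Itgb8 (chromosome 12, 119158022 to 119238802, minus strand), the chain that with αv activates latent TGF-β, was not tested in any comparison. Its counts were 2, 5, 0 and 0 in WT Tn, 0, 2, 9 and 3 in Aim2-/- Tn, 3, 1, 1 and 3 in WT Treg and 1, 4, 2 and 1 in Aim2-/- Treg. At this depth a level of Itgb8 could not be set apart from the floor in most libraries, and no difference was detectable.

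**Figure D2:**
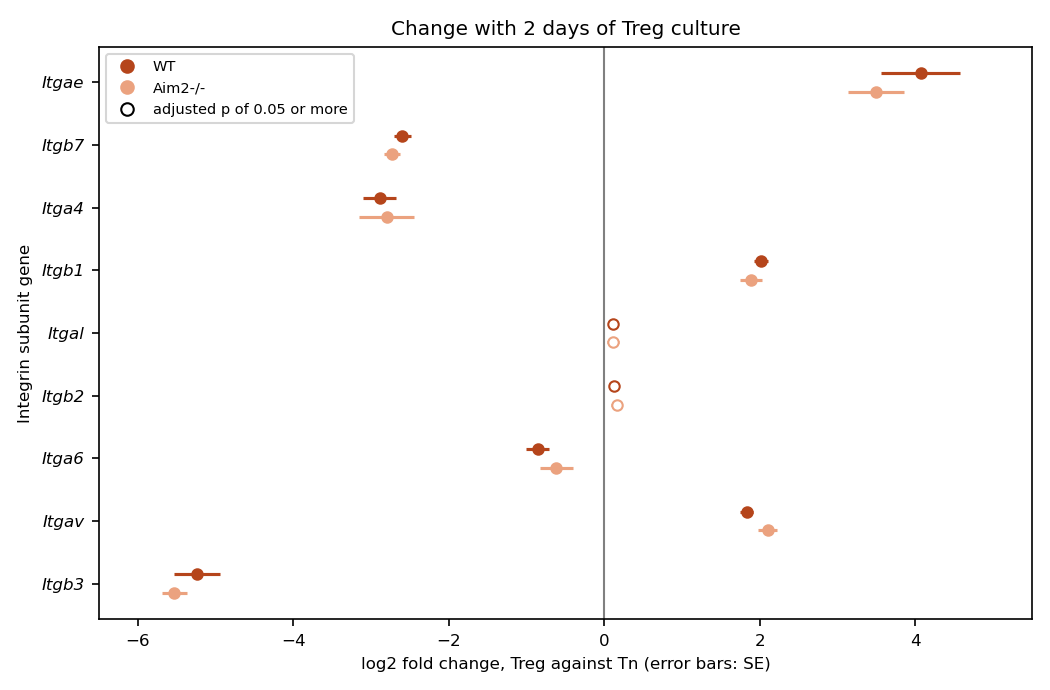
Log2 fold change of each tested member after 2 days of Treg culture against naïve cells, in WT and Aim2-/- cells; points are edgeR estimates from 4 against 4 libraries, bars are standard errors and open points have an adjusted p of 0.05 or more. Itgb3 lies furthest left at -5.24 and -5.53, Itgae furthest right at 4.07 and 3.49, and Itgal and Itgb2 lie between 0.11 and 0.16.

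To compare the chains with each other, levels were put per length, as RPKM, which is CPM divided by the length in kilobases of the union of exons. In WT Tn the order was Itgb7 at 296 ± 18.9 RPKM (SD, n = 4), Itgb2 at 170 ± 10.4, Itgal at 75.4 ± 3.32, Itga6 at 24.3 ± 4.20, Itga4 at 19.3 ± 1.10, Itgb3 at 17.2 ± 3.23, Itgb1 at 10.7 ± 0.99, Itgav at 1.66 ± 0.08, Itgae at 0.040 ± 0.029 and Itgb8 at 0.0060 ± 0.0084. Neighbours in this order did not overlap over the 4 libraries except Itga4 with Itgb3 and Itgae with Itgb8. In WT Treg the order was Itgb2 at 189 ± 5.31 RPKM, Itgal at 83.2 ± 1.37, Itgb7 at 50.1 ± 7.34, Itgb1 at 44.2 ± 2.59, Itga6 at 13.7 ± 2.18, Itgav at 6.06 ± 0.45, Itga4 at 2.65 ± 0.79, Itgae at 0.685 ± 0.110, Itgb3 at 0.461 ± 0.189 and Itgb8 at 0.0061 ± 0.0040. Itgb7 with Itgb1 and Itgae with Itgb3 overlapped there. So Itgb7 passed from the first to the third place, Itgb1 from the seventh to one shared with Itgb7, and Itgb3 from the sixth to the ninth. The Aim2-/- libraries gave the same order in Treg, and in Tn Itga6, Itgb3, Itga4 and Itgb1 each overlapped with the next. The length used matters for the α chains: with the longest coding transcript, Itga6 was 50.9 RPKM and Itga4 27.6 RPKM in WT Tn, with the same order and with Itga4 and Itgb3 apart.

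The balance between partners shifted most for the pairs whose chains moved in opposite directions, as the ratio of α to β mRNA per length within each library shows. Itgav over Itgb3 was -3.35 ± 0.33 on the log2 scale in WT Tn and 3.81 ± 0.67 in WT Treg, so β3 mRNA exceeded αv mRNA 10.2-fold before culture and αv exceeded β3 14.0-fold after it. Itga4 over Itgb1 went from 0.86 ± 0.18 to -4.12 ± 0.42, a 31.4-fold shift, and from 0.62 ± 0.49 to -4.24 ± 0.74 in Aim2-/-. Itga6 over Itgb1 went from 1.18 ± 0.36 to -1.70 ± 0.18 in WT, which turned an excess of α6 into an excess of β1. None of the Tn and Treg libraries overlapped in these ratios in either genotype.

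The Tn and Treg libraries overlapped in both genotypes for Itgal over Itgb2 and for Itgav over Itgb1. Itgal over Itgb2 was -1.17 ± 0.08 in WT Tn and -1.18 ± 0.02 in WT Treg, with β2 above αL 2.26-fold and 2.27-fold. Itgav over Itgb1 was -2.68 ± 0.16 and -2.87 ± 0.15 in WT, although both chains rose. Itga4 over Itgb7 was -3.94 ± 0.07 and -4.29 ± 0.30 in WT, which did not overlap, and -4.32 ± 0.37 and -4.55 ± 0.69 in Aim2-/-, which did. Itgae over Itgb7 went from -12.67 ± 0.69 to -6.35 ± 0.39 in Aim2-/-, an 80.3-fold shift without overlap that rests on 3 to 10 naïve counts of Itgae, and it is not given for WT Tn, where 1 library held no count. Even after culture Itgb7 exceeded Itgae 73.1-fold per length in WT Treg. These ratios are of mRNA and say nothing of the chains at the surface.

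**Figure D3:**
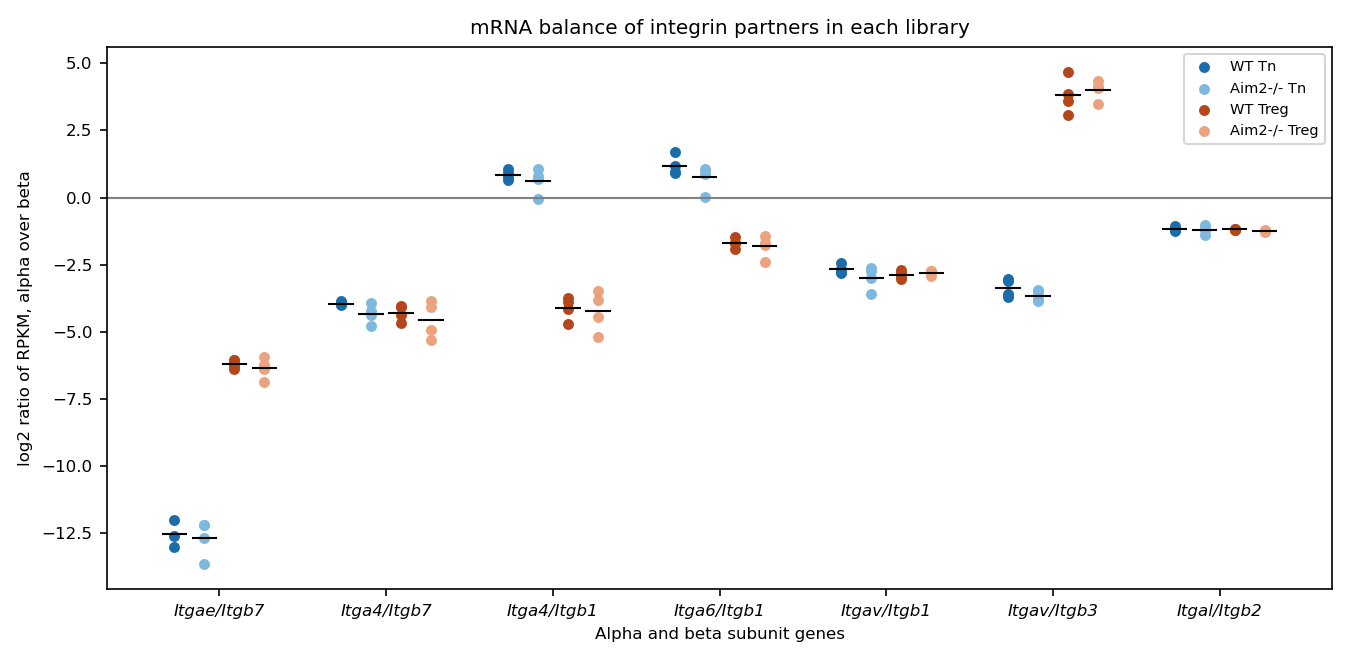
Log2 ratio of RPKM of an α gene over its β partner in each library, by pair and group; points are libraries and bars are group means, with libraries at 0 counts of Itgae left out and the Itgav/Itgb8 pair not drawn. The group means of Itga4/Itgb1 and Itga6/Itgb1 cross from above to below 0 with culture, although Itga4/Itgb1 was already at -0.067 in Aim2-/- Tn replicate 3. Itgav/Itgb3 crosses from below to above, and the group means of Itgal/Itgb2 stay near -1.2 in all 4 groups.

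Among the remaining integrin chains more fell than rose. Of 16 other subunit genes 11 were tested in WT, and 2 rose and 9 fell, against the background of 37.7% higher and 39.2% lower given above. Itga1 and Itgad had no Treg library with 10 counts and Itgb4 no Tn library with 10 counts, so these 3 passed the filter through 1 state and had to differ, and of the other 8 tested 1 rose and 7 fell. In Aim2-/- cells 1 rose and 8 fell of 10 tested, against 79.3% of all genes called in either direction. Itga9 and Itgad had no Aim2-/- Treg library with 10 counts, so they passed through Tn and had to be lower. Of the other 8 tested 1 rose, 6 fell and 1 was not called. The risers in WT were Itga5, the fibronectin receptor α chain, from 4.90 ± 0.60 to 12.9 ± 0.74 CPM (log2 1.36 ± 0.13, adjusted p = 5.7e-06 by edgeR), and Itgb4, the hemidesmosome β chain, at 0.078 ± 0.063 and 0.456 ± 0.045 CPM, near the floor. Itga1, a collagen receptor α chain, had no count in WT Treg and was at least 10.3-fold lower there, Itgad, another α partner of β2, was at least 7.23-fold lower, and Itga9 fell by 3.86 on the log2 scale. All 3 were below 4 CPM in Tn. The sums of the myeloid and NK marker lists were also lower in Treg. The myeloid list summed to 8.70 to 15.9 CPM in Tn and 1.69 to 2.17 CPM in Treg. Of its 8 genes, 5 and 6 were above 3 counts in WT and Aim2-/- Tn and 3 and 2 in WT and Aim2-/- Treg. Most of the myeloid sum in Tn was Cd68, on average 8.71 CPM in WT Tn and 7.12 CPM in Aim2-/- Tn. Adgre1 did not fall, at 0.207 and 0.282 CPM in WT Tn and Treg and 0.196 and 0.259 CPM in Aim2-/- Tn and Treg. S100a8 held 0 counts in every library. The NK list summed to 1.90 to 8.37 CPM in Tn and at most 0.101 CPM in Treg, where none of its 4 genes passed 3 counts. Most of its Tn sum was Klrb1c, on average 3.86 CPM in WT Tn and 3.59 CPM in Aim2-/- Tn. The part of myeloid and NK cells in the fall of the low integrin chains was not tested.

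Of the integrin ligand genes 7 were higher, 2 lower and 1 not called of 10 tested among 18 listed, against the background of 37.7% higher and 39.2% lower. Lama5 passed the filter through its Treg libraries alone and had to be higher, and several of the others were near the floor in Tn, so the filter sets a share of this count. Lamc1, the laminin γ1 chain, was 0.329 ± 0.089 CPM in WT Tn and 26.0 ± 2.62 CPM in WT Treg (log2 6.23 ± 0.18, adjusted p = 3.2e-09 by edgeR), and Lama5, the laminin α5 chain, was at least 27.4-fold higher in WT Treg, from no more than 3 counts in Tn. Lrrc32, which encodes GARP and tethers latent TGF-β on Treg cells, rose from 0.632 ± 0.270 to 28.3 ± 12.4 CPM. Of the ligands of LFA-1, Icam1 rose from 33.0 ± 7.82 to 67.1 ± 16.8 CPM (log2 0.99 ± 0.20, adjusted p = 0.0015 by edgeR; named after its values were seen, and with counts that were not whole in 10 libraries), whereas Icam2 fell from 57.9 ± 9.07 to 21.1 ± 2.69 CPM, and Tgfb3 was 1.05 ± 0.46 and 0.426 ± 0.132 CPM (log2 -1.32 ± 0.39, adjusted p = 0.011). In Aim2-/- cells 9 rose and 2 fell of 11 tested, against 79.3% of all genes called in either direction. Thbs1, Lama5 and Lamb1 passed through Treg libraries alone and had to be higher there. Of the other 8 tested, 6 rose and 2 fell.

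Of the genes that activate integrins from inside the cell 3 were higher, 11 lower and 3 not called of 17 tested (median log2 -0.65, against -0.05 over all genes tested). The 14 of 17 called are close to the 76.9% of all genes called, and the split by direction is to be read against 37.7% higher and 39.2% lower. Rasgrp2, the exchange factor that loads RAP1 with GTP, fell 75.5-fold, from 249 ± 20.7 to 3.38 ± 0.90 CPM (log2 -6.24 ± 0.20, adjusted p = 4.9e-09 by edgeR). Fyb, the adaptor ADAP, fell from 467 ± 38.8 to 102 ± 7.96 CPM, and Cyth1, the β2 tail binder cytohesin-1, from 313 ± 47.6 to 96.3 ± 8.70 CPM. Among the final activators, the blood cell kindlin Fermt3 was 254 ± 38.6 and 240 ± 7.90 CPM (adjusted p = 0.33), whereas Tln1, talin, fell by 0.73 on the log2 scale; both were named after their values were seen. Fermt1 and Tln2, the epithelial kindlin and the second talin, had no more than 3 counts in any Tn library and were at least 29.7-fold and 11.4-fold higher in WT Treg, at 3.76 ± 2.46 and 1.44 ± 0.30 CPM; they passed the filter through Treg libraries alone. Of the inhibitors 1 rose, 4 fell and 2 were not called of 7 tested (median log2 -0.85), with Rasa3, a GTPase-activating protein for RAP1 and RAS, falling from 455 ± 47.0 to 97.2 ± 30.1 CPM and Sharpin from 78.3 ± 4.28 to 38.1 ± 1.01 CPM.

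The adhesion complex had 6 genes higher, 6 lower and 5 not called of 17 tested (median log2 -0.05, the same as over all genes), with Bcar1 tested through its Treg libraries alone. Over all genes tested 76.9% were called, 37.7% higher and 39.2% lower, so calls were no more frequent in this list. The kinase Src rose from 0.318 ± 0.136 to 17.1 ± 6.57 CPM, the actin linker Tns1 from 7.40 ± 1.82 to 113 ± 27.8 CPM and the scaffold Bcar1 from 0.096 ± 0.103 to 1.13 ± 0.50 CPM. Actn1, α-actinin, fell from 567 ± 48.1 to 173 ± 9.45 CPM, Nedd9, the lymphocyte relative of Bcar1, from 178 ± 20.8 to 63.0 ± 5.92 CPM and Tgfb1i1, which encodes Hic-5, from 5.88 ± 1.30 to 0.518 ± 0.116 CPM. Of the lateral partners, mostly tetraspanins that organise integrins in the membrane, 2 rose, 5 fell and 3 were not called of 10 tested (median log2 -0.75). Against the same 76.9% of all genes, calls were no more frequent here either. Cd81 rose from 10.3 ± 1.28 to 22.6 ± 1.45 CPM, while Cd53, Tspan32 and Cd37 fell by 2.83, 1.67 and 1.47 on the log2 scale.

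Loss of Aim2 was then asked about in each state. None of the members was called between genotypes by edgeR. In Tn 8 members were tested, and 1 had an unadjusted p below 0.05; over all 13441 genes 31 (0.231%) were called, and 1389 (10.3%) had an unadjusted p below 0.05. That member was Itga6, 220 ± 37.9 CPM in WT Tn and 167 ± 25.0 CPM in Aim2-/- Tn (log2 -0.39 ± 0.14, unadjusted p = 0.023 and adjusted p = 0.43 by edgeR), with overlapping groups. Itgav was 17.9 ± 0.86 and 14.8 ± 2.15 CPM (log2 -0.26 ± 0.12, adjusted p = 0.49), and Itgb7 821 ± 52.3 and 932 ± 87.8 CPM (log2 0.19 ± 0.09, adjusted p = 0.51). The other 5 differences were between -0.17 and 0.06 on the log2 scale. Aim2 itself was lower by 4.72-fold (adjusted p = 1.1e-05). DESeq2 called none of the members either, with 128 genes called in all. The erythroid markers summed to 1.23 to 3.97 CPM in WT Tn and 5.13 to 7.94 CPM in Aim2-/- Tn. All 5 listed genes were above 3 counts in Aim2-/- Tn and 4 of 5 in WT Tn. By gene the groups overlapped for Hba-a2 (up to 1.24 CPM in WT, down to 1.07 CPM in Aim2-/-) and Hbb-bt (0.422 and 0.375 CPM). They did not for Hba-a1, Hbb-bs and Alas2. Of 4 of these genes tested, none was called by edgeR. The part of these markers in any genotype difference was not tested.

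In Treg 9 members were tested and none had an unadjusted p below 0.05, while 29 of 13221 genes (0.219%) were called and 304 (2.30%) had an unadjusted p below 0.05. DESeq2 called none of the members and 52 genes. Itgal was the member whose groups did not overlap, 546 ± 8.98 CPM in WT Treg and 525 ± 9.30 CPM in Aim2-/- Treg (log2 -0.06 ± 0.04, adjusted p = 1.0 by edgeR), against 2.26% of all genes with groups that did not overlap. The widest standard error was that of Itga4, at -0.11 ± 0.39, so that a moderate difference was not detectable. Itgb3 was at -0.30 ± 0.32 and Itga6 at -0.18 ± 0.22, and the remaining 6 were between -0.10 and 0.03. Of the regulators and ligands listed, none was called in either state; the smallest p values belonged in Tn to Klf2, a quiescence factor (log2 0.45, adjusted p = 0.13), Rap1gap (1.15, adjusted p = 0.27) and the adaptor Crkl (-0.41, adjusted p = 0.28), and in Treg to Cd81 (-0.24), Tgfb1i1 (-0.67) and Itgb5 (-1.09), each with an adjusted p of 1.0.

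**Figure D4:**
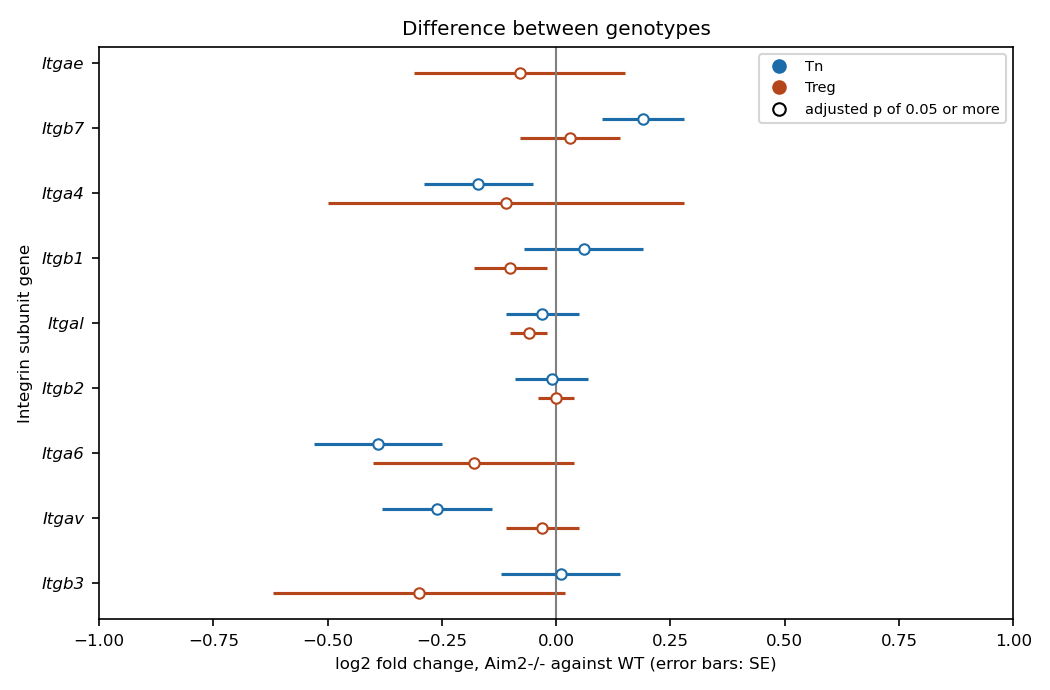
Log2 fold change of each tested member in Aim2-/- against WT cells, in Tn and in Treg; points are edgeR estimates from 4 against 4 libraries, bars are standard errors and all points are open because every adjusted p was 0.05 or more. The points lie between -0.39 for Itga6 in Tn and 0.19 for Itgb7 in Tn, and Itgae was not tested in Tn.

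The genotype effect was also compared between the states in a fit of all 16 libraries. Of 9 members tested none was called, none had an unadjusted p below 0.05 and DESeq2 called none, while 3 of 14669 genes (0.0205%) were called, 10 were called by DESeq2 and 3.50% had an unadjusted p below 0.05. The smallest p was that of Itgav, whose change in culture differed between Aim2-/- and WT cells by 0.24 ± 0.14 on the log2 scale (adjusted p = 1.0 by edgeR). Itgae was at -0.60 ± 0.66, with few naïve counts behind it.

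How members varied between replicates of a group was described by correlation. With group means taken off log2 CPM over the 16 libraries, the 36 pairs of tested members had Pearson correlations from -0.572 to 0.87, with a median of 0.206; 8 pairs were above 0.5 and 1 was below -0.5. The highest was that of Itga4 with Itga6 (Pearson r 0.87, Spearman rho 0.779, and r 0.742 without the 2 libraries farthest out in Itga4). Both were lower in replicates 3 and 4 than in replicates 1 and 2 in both Treg groups on average, and in Aim2-/- Tn, while in WT Tn Itga6 was lower and Itga4 was not. The genes most like Itga4 by this measure were Zfp831 (r 0.982), Pik3r1 (0.979) and Il6ra (0.977), and the gene most like Itga6 was Il6st (0.975). The nearest gene was Aqp3 for Itgb7 (0.946), Nit2 for Itgb1 (0.915), Hectd2 for Itgb3 (0.914), Gnb1l for Itgb2 (0.912), Npas1 for Itgal (0.907), Gm15337 for Itgav (0.86) and Cep128 for Itgae (0.853). Each of these genes was picked as the highest among the 14669 genes tested in the fit of all 16 libraries, so its r is high by selection. Without the 2 libraries farthest out in the member, r was 0.724 for Npas1 and 0.749 for Gm15337. For the other nearest genes it was between 0.85 (Gnb1l) and 0.963 (Zfp831). The correlations are descriptions over 16 libraries that share groups, depth and the split of the replicates.

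**Figure D5:**
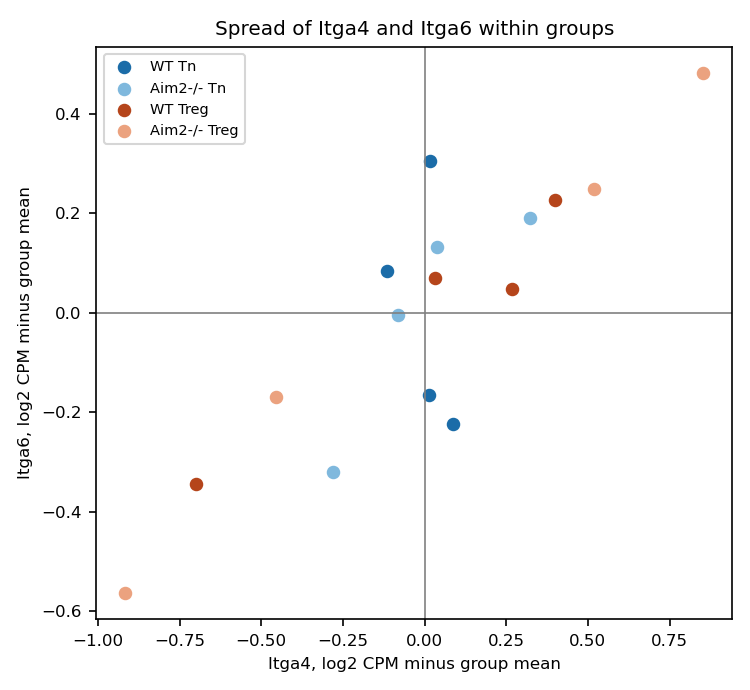
Deviation of Itga6 from its group mean against that of Itga4, both in log2 CPM, in the 16 libraries, coloured by group. Treg libraries spread furthest, from -0.92 to 0.85 for Itga4 in Aim2-/- Treg, and the 4 WT Tn libraries spread along Itga6 with little spread in Itga4.

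The culture changes were also read within replicates 1 and 2 and within replicates 3 and 4. In each of these fits Itgb7, Itga4, Itga6 and Itgb3 were lower and Itgb1 and Itgav higher in Treg with an adjusted p below 0.05 by edgeR in both genotypes, while Itgae had too few libraries with 10 counts to be tested. The counts of Itga4, Itgav and Itga6 were not whole in 16, 14 and 6 libraries, which means that RSEM shared some reads between them and other genes. Itga4 overlaps Cerkl on the opposite strand, which did not exceed 100 counts, and Itgav overlaps Dnmt3l-ps1 and Gm13684, with no more than 9.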

How the data were processed

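The 16 libraries, 4 in each of the 4 groups, were assigned to groups and replicate numbers from the sample titles; the names of some deposited tables number their libraries otherwise. The authors prepared stranded mRNA libraries, aligned single-end reads with STAR on GRCm38 and used RSEM with GENCODE m15, per the study's methods and the submitters' processing notes; tool versions and strand setting are not given in the sources used here. The deposited values are expected counts for each of 53090 genes, without any normalization or filter, and 9160 genes were not whole in at least 1 library.

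Expected counts were rounded. A gene was tested where 4 or more of the libraries compared held at least 10 counts. The main test was edgeR 4.0.16 (quasi-likelihood, robust, two-sided) after TMM scaling, with Benjamini-Hochberg adjustment over all genes tested and a threshold of 0.05; a second rule added a fold of at least 2. Genotypes and states were compared on 8 libraries each, and the interaction on 16. CPM and RPKM used TMM factors and exon lengths of GENCODE M21 on GRCm38, and promoter sequences came from RefSeq on GRCm38.p6. A fold against a group with at most 3 counts in any library is a lower bound, computed against the CPM of 3 counts in the library of that group where they are worth most. No molecular identifiers were used, so floors describe counting error alone. No protein sequence is used here. The test was checked on simulated data.

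The members, the lists of regulators, ligands and marker genes, and the tests were chosen with earlier results of these data known. Named were all members, Aim2, and up to 3 list genes with the largest rise and up to 3 with the largest fall past both rules in WT culture. Also named were the 3 list genes with the smallest p between genotypes. For likeness these were the 3 genes closest to each member, of which the first or all are printed. Fermt3, Tln1, Icam1 and Itga2b were added after their values were seen. Alternatives were DESeq2 1.42.0, limma-voom (limma 3.58.1), RLE and upper quartile factors, library totals, no filter, a stricter filter of 10 counts per library throughout, a joint fit of all 16 libraries, a block for the replicate number, replicates 1 and 2 against 3 and 4 as a covariate or each pair alone, leaving out each library in turn and, chosen after seeing the data, RPKM with the length of the longest coding transcript.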

Additional observations from a re-analysis of the deposited data

Results flagged for a closer look

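In 4 of the 40 groups of 4 libraries tested over the 10 members, 1 library lay further from the other 3 than Dixon's 95% limit allows; chance would give about 2. In 3 of them it was Aim2-/- Tn replicate 3, with Itgb7 at 1060 CPM against 878 to 898 CPM in the others, Itgb1 at 59.0 CPM against 40.2 to 40.8 CPM and Itgb2 at 560 CPM against 490 to 502 CPM. The fourth was Itgb2 in Aim2-/- Treg replicate 4, at 557 CPM against 585 CPM in each of the other 3. These values of Itgb1 and Itgb7 left the calls after culture in place when each library was left out.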

How the results depend on the processing

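The falls of Itgb7, Itga4 and Itgb3 and the rises of Itgb1 and Itgav in culture kept their direction and their call in both genotypes under every setting run. Itgae, which is tested through its Treg libraries, could not be tested with 10 counts in every library, within pairs of replicates or, in WT, without a WT Treg library. Itga6 in Aim2-/- lost its call in the settings named beside it. In WT, 5 members rather than 3 were called higher with DESeq2, RLE factors and all 16 libraries in one fit, the added ones being Itgal (0.15, 0.15 and 0.14) and Itgb2 (0.16, 0.16 and 0.15); Itgb2 in Aim2-/- was also called with DESeq2, limma-voom, RLE factors and all 16 libraries. Upper quartile factors turned Itgal and Itgb2 to -0.01 each in WT and to -0.06 and -0.01 in Aim2-/-, and moved the median of all genes from -0.053 to -0.173 in WT and from -0.036 to -0.205 in Aim2-/-. Leaving out 1 library gave 2 to 3 members higher and 4 lower in WT and 3 to 4 of each in Aim2-/-. Without WT Treg replicate 4 Itgal was called (0.16), without WT Treg replicate 2 Itgb2 (0.18), and in Aim2-/- Itgb2 without Tn replicate 3 (0.16) or Treg replicate 4 (0.23). The causes were not tested.

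Between genotypes no member was called under any setting. Genes called in Tn, 31 in the report, were 128 with DESeq2, 49 with no filter, 18 with 10 counts in every library, 50 with all 16 libraries, 51 with replicates 1 and 2 against 3 and 4 as a covariate, 15 in replicates 1 and 2, 509 in replicates 3 and 4 and 17 to 28 with 1 library left out. In Treg, with 29, they were 52 with DESeq2, 17 with 10 counts in every library, 15 in replicates 1 and 2, 4 in replicates 3 and 4 and 10 to 17 with 1 library left out. For the interaction, with 3, they were 10 with DESeq2, 0 with 10 counts in every library and 2 to 5 with 1 library left out. Some differences near 0 changed sign. In Tn these were, in replicates 1 and 2 alone, Itga4 at 0.05, Itgb1 at -0.02, Itgal at 0.05 and Itgb2 at 0.03, with Itgb2 at 0.00 with upper quartile factors, and Itgb3 at 0.00 with DESeq2 and RLE factors, -0.02 with library totals, -0.01 with no filter and -0.23 in replicates 3 and 4. In replicates 3 and 4 of Tn Itga4 was at -0.43 (adjusted p = 0.055 by edgeR). In Treg the differences that changed sign were, in replicates 1 and 2 alone, Itga4 at 0.14, Itga6 at 0.01, Itgav at 0.04 and Itgb3 at 0.01, against -0.61 for Itga4, -0.45 for Itga6 and -0.67 for Itgb3 in replicates 3 and 4 (adjusted p = 0.78 each), with Itgb2 at 0.00 with upper quartile factors and with 10 counts in every library and at -0.02 with library totals and in replicates 3 and 4. For the interaction Itga4 was -0.04 with limma-voom and -0.17 in replicates 3 and 4, where Itgal was 0.04 and Itga6 -0.09, and Itgb1 was 0.02 in replicates 1 and 2. With 1 library left out, the ranges that crossed 0 were in Tn -0.09 to 0.00 for Itgal, -0.09 to 0.11 for Itgb1, -0.05 to 0.01 for Itgb2 and -0.08 to 0.11 for Itgb3, in Treg -0.44 to 0.13 for Itga4, -0.20 to 0.10 for Itgae, -0.08 to 0.02 for Itgav, -0.01 to 0.02 for Itgb2 and -0.07 to 0.09 for Itgb7, and for the interaction -0.25 to 0.32 for Itga4, -0.06 to 0.03 for Itgal, -0.21 to 0.00 for Itgb1 and 0.00 to 0.06 for Itgb2. These causes were not tested.

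The replicate numbers come from the titles, and the names of some deposited tables carry other numbers. They were taken to pair the libraries only if all 4 correlations of a comparison exceeded 0.1, which none met, although 3 of 4 did in Treg: the correlations of same-numbered deviations were 0.18, 0.04, 0.30 and 0.02 between genotypes in Tn and 0.40, 0.23, -0.01 and 0.35 in Treg, and between states 0.02, 0.13, 0.02 and -0.02 in WT and 0.09, -0.04, 0.02 and 0.02 in Aim2-/-, with 3, 4, 4 and 1 of 8 libraries closest to their own number. With the replicate block the genes called were 10355 and 10862 in culture, 29 and 41 between genotypes and 2 for the interaction, and 3 members were higher and 4 lower in each genotype, as without the block; no member's call changed, and Itga6 in Aim2-/- was -0.66 (adjusted p = 0.0024). Depth limits Itgb8 and the naïve level of Itgae, which lie near 3 counts.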
